A study of Mus musculus with 12 samples.

Results

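The step followed here runs from the marrow stem and progenitor cell, LSK, to DN2b, the T cell precursor that has committed to the lineage. The regions described are 12940 places whose open chromatin changed between these 2 populations, out of 53534 merged from 3 LSK and 2 DN2b libraries. Of the merged regions, 7281 were gained (13.6%, 95% Wilson interval 13.3% to 13.9%), with a peak in both DN2b libraries and no LSK library. A further 5659 were lost (10.6%, interval 10.3% to 10.8%), with a peak in all 3 LSK libraries and neither DN2b library. These counts are for lists of equal length, and with the lists as deposited 15562 regions were gained and 4713 lost. To place each change in time, the libraries of the intermediate stages DN1 and DN2a (2 each) were read at the same regions, and 3 libraries of LSK cells cultured without Notch ligand (IgG) served as the culture control, which makes 12 libraries in all.

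LSK cells came fresh from the marrow of C57BL/6J mice and were sorted as lineage-negative, SCA1+ and KIT+. For the DN populations, LSK cells were cultured on immobilized Delta1ext-IgG, a Notch ligand joined to an antibody tail, with SCF, FLT3L, IL-6 and IL-11. DN1 cells (KIT++CD44+CD25-) were taken from cultures without IL-7, and DN2a (KIT++CD44+CD25+) and DN2b (KIT+CD44loCD25+) cells from cultures given IL-7. IgG libraries came from LSK cells cultured with the same 4 factors on human IgG1 in place of the ligand. LSK is therefore the only group that was never cultured, so culture and stage cannot be told apart between LSK and DN2b, nor IL-7 and stage between DN1 and DN2a. Sorted populations can mix cells of neighbouring stages, and in such bulk samples fewer cells with an open site and a less open site in every cell cannot be told apart. Ages and sexes of the mice were not given in the sources used here, and the DN cells were drawn from the LSK isolates, so libraries may share a source and p-values measure the spread between these libraries only.

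DNase I cuts DNA where nucleosomes are displaced, so a cluster of cuts (a DNase I hypersensitive site) marks a promoter, enhancer or other element held open by bound factors. On meeting a Notch ligand, a progenitor cleaves its Notch receptor, and the freed intracellular part joins the DNA-binding protein RBPJ to switch on target genes such as Hes1 and Dtx1. Under this signal the factors TCF1 (gene Tcf7) and GATA3 appear first, and BCL11B, which closes off the non-T fates, later. Genes of stem cells and of other lineages, many driven by PU.1, MEIS1, TAL1 or GATA2, are switched off along the way, while RUNX factors and E proteins take part throughout. CD25, the sort marker of DN2, is the product of Il2ra.

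Read numbers were not used here, as the libraries are known only by their 150-bp peaks and a score for each, so the depth behind a peak is unknown. Lists held from 32952 to 111582 peaks, and DN2b replicate 2 had the longest. To set the libraries on one footing, the 32952 highest-scoring peaks of each were used, the length of the shortest list (IgG replicate 2). The last peak used then stood at the 38.6th to 46.5th score percentile in LSK lists and at the 47.0th and 70.8th in DN2b lists. Score percentiles below rank a peak among all deposited peaks of its own library (100 is the highest score), so they order peaks within a library and are no measure of cutting between libraries. In the check of labels by promoter peaks, Il2ra and Cd3e were open in all 4 DN2a and DN2b libraries and in none of the other 8. Of the other DN2b markers, Tcf7 was open in the same libraries only, and Bcl11b also in both DN1 libraries. Rag1 was open in 1 DN1, 1 DN2a and both DN2b libraries. Thy1 was open in DN2b replicate 1 only, as its peak in DN2b replicate 2 (percentile 69.3) fell below the end of the list used. Of the LSK markers, Kit, Flt3 and Meis1 were open in all LSK, DN1, DN2a and DN2b libraries, and in 3, 2 and 3 IgG libraries. Cd34 was open in the LSK and DN1 libraries only, and Hlf in all LSK and 2 IgG libraries. Ly6a, which encodes SCA1, had no promoter peak in any library, so this marker of the sort could not be checked.

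Sequences of 14 changed regions are printed here because they are among the 3 strongest of their stage away from promoters, belong to genes known from the starting or final cells, or lie side by side. They are the forward strand of GRCm38 (mm10). Capitals mark the letters of a RUNX (TGTGGT), TCF1/LEF1 (CTTTGA), E protein (CACCTG) or PU.1 (GAGGAAGT) motif on either strand, and a match is a description of the letters, not evidence of binding. The first set was gained and first seen at DN1. The strongest, in an intron of Bdh1, is chr16:31424577-31424746. The one upstream of Tcf7 is chr11:52314317-52314466, that upstream of Il2ra is chr2:11636177-11636326, and the one beside the start of Bcl11b is chr12:108004057-108004226.
Bdh1 intron, gained at DN1: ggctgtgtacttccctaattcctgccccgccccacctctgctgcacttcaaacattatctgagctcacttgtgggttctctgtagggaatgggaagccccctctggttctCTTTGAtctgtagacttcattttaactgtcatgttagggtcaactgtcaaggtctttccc
Tcf7 upstream, gained at DN1: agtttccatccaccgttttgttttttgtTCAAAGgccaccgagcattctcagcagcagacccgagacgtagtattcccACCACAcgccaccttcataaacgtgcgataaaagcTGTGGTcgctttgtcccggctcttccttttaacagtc
Il2ra upstream, gained at DN1: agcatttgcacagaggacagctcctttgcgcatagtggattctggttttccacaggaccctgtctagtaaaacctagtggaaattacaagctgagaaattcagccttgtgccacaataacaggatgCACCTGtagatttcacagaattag
Bcl11b promoter, gained at DN1: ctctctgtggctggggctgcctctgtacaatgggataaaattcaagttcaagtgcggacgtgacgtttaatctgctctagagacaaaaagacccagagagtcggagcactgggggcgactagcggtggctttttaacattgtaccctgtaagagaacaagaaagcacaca

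Next come gained regions first seen at DN2a, namely the strongest away from promoters, upstream of Metap2 (chr10:93938817-93938986), and one upstream of Cd3e (chr9:45011497-45011686), and a region first seen at DN2b in an intron of Kdm2b (chr5:122949217-122949386), which ranked next for its stage after 2 regions in the crowded Sfi1 locus.
Metap2 upstream, gained at DN2a: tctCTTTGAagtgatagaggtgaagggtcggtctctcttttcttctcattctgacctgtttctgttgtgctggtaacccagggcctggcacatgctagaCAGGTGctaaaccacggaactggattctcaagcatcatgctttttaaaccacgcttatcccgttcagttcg
Cd3e upstream, gained at DN2a: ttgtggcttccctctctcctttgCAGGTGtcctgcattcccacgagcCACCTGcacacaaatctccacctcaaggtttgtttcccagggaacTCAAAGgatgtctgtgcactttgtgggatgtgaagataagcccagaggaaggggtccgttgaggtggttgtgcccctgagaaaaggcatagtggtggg
Kdm2b intron, gained at DN2b: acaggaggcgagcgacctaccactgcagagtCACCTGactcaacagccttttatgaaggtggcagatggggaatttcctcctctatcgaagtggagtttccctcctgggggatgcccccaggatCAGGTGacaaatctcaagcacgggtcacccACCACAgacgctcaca

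The lost regions shown are the strongest lost at DN1, in an intron of Rbp2 (chr9:98489657-98489806), and the strongest lost at DN2a, in an intron of Dlgap1 (chr17:70488917-70489106). Another, lost at DN2b in an intron of Gcnt2 (chr13:40909177-40909346), ranked after a region in a non-coding RNA gene and one whose nearest start is Zfp608. With them are the promoter of Myct1 (chr10:5593557-5593746) and an intron of Meis1 (chr11:18970077-18970266), both genes active in stem cells.
Rbp2 intron, lost at DN1: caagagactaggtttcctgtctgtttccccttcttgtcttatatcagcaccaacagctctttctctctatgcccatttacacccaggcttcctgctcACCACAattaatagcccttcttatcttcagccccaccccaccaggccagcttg
Dlgap1 intron, lost at DN2a: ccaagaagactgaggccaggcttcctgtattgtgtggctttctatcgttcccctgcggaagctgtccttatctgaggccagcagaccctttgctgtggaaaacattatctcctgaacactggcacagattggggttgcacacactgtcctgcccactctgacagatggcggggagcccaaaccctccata
Gcnt2 intron, lost at DN2b: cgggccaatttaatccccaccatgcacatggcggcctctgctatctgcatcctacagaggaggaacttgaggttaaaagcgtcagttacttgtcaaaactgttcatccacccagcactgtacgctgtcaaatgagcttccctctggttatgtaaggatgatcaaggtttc
Myct1 promoter, lost at DN2a: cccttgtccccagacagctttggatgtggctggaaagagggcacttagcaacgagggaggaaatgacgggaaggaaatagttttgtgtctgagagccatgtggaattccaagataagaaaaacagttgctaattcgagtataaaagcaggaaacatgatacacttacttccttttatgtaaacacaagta
Meis1 intron, lost at DN2b: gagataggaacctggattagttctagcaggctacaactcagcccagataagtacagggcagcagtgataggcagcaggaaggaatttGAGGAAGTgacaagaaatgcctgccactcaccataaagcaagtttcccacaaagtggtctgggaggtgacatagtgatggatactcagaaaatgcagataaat

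Finally, a lost and a gained region lie side by side in an intron of Runx1, chr16:92822197-92822346 (lost) and chr16:92821917-92822106 (gained). Both hold a RUNX motif.
Runx1 intron, lost at DN2b: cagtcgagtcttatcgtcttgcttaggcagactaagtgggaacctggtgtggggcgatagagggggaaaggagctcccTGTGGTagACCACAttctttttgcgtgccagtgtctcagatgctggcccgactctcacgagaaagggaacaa
Runx1 intron, gained at DN2a: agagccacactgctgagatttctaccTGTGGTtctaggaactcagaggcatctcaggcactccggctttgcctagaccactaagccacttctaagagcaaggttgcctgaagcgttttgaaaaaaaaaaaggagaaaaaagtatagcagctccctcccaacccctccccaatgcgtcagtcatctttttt

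When did the changes appear? Of the gained regions, 2022 (27.8%, interval 26.8% to 28.8%) already had a peak in both DN1 libraries, 2365 (32.5%, interval 31.4% to 33.6%) first did so in both DN2a libraries, and 2894 (39.7%, interval 38.6% to 40.9%) only in DN2b. Losses came earlier. A peak was gone from both DN1 libraries in 2594 lost regions (45.8%, interval 44.5% to 47.1%), and first gone from both DN2a libraries in 1542 (27.2%, interval 26.1% to 28.4%). In the other 1523 (26.9%, interval 25.8% to 28.1%) it was gone from both libraries of a stage only at DN2b. Thus the largest class was DN2b for gains and DN1 for losses at equal list lengths. The order of the classes depended on list length and on the rule for a stage. With lists as deposited, DN2b remained the largest class of gains (48.0%), and the largest class of losses was DN2a (48.4%) with DN1 at 31.7%. The DN1 share of gains was then 33.6%, above that of losses. With 1 of 2 replicates enough, DN1 was the largest class of both, at 42.7% of gains and 62.7% of losses. Without DN2a replicate 1, DN2a was the largest class of gains (44.2%), and without DN2a replicate 2 it was again (40.1%).

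**Figure D1:**
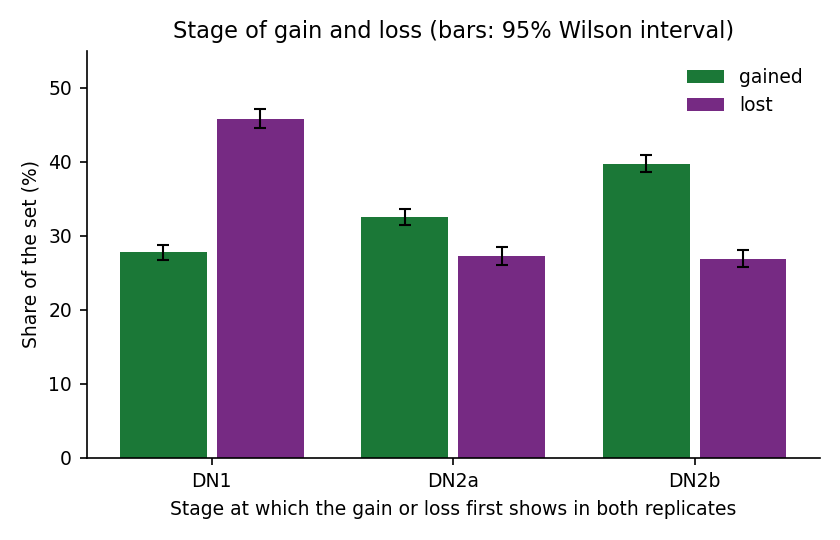
Share of the 7281 gained (green) and 5659 lost (purple) regions by the stage at which the change first showed in both replicates, in percent of each set, with 95% Wilson intervals as error bars. Gains rise from 27.8% at DN1 to 39.7% at DN2b, and losses are highest at DN1 (45.8%).

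Since a region had to be open or closed in both DN2b libraries to be chosen, changes at DN1 that did not last to DN2b are not among the members. Among regions gained at DN1, 1755 were also open in both DN2a libraries and 267 (13.2%) were not. Among regions lost at DN1, 332 (12.8%) had a peak again in a DN2a library. Of regions first gained at DN2b, 1385 (19.0% of all gains) had no peak in any DN1 or DN2a library, so the other regions of that class had been open in at least 1 of those 4 libraries. Of regions first lost at DN2b, 653 (11.5% of all losses) had a peak in all 4 of those libraries. The other regions of that class were already without a peak in at least 1 of them. The regions gained last ranked lowest in DN2b, with a median score percentile of 70.3 against 79.9 for those gained at DN1 and 78.7 for those gained at DN2a. Regions lost at DN1 had a median percentile of 62.0 in LSK, below the 67.6 and 68.3 of those lost at DN2a and DN2b.

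Peaks too weak for the equal-length lists lay at many of these places. Of gained regions, 5141 (70.6%) had no peak in any LSK list as deposited, and 410 (5.63%) had one in all 3. Lost regions were less clear-cut. In the deposited DN2b lists, 1890 of them (33.4%) had no peak in either library and 2080 (36.8%) had one in both. DN2b replicate 2, the longest list, had a weak peak in 65.2% of lost regions, against 38.1% for DN2b replicate 1. A lost region is thus one that fell out of the upper part of the DN2b lists, and 1890 regions were without any DN2b peak.

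Libraries that played no part in choosing the regions were then compared. Gained regions had a peak in 34.3% and 36.2% of cases in the DN1 libraries, 65.7% and 69.7% in the DN2a libraries, and 6.57%, 6.55% and 8.31% in the IgG libraries. All 4 ligand-cultured libraries lay above all 3 cultured without ligand. The mean was 51.5% ± 18.8 (SD, n = 4) with Delta1 and 7.14% ± 1.01 (SD, n = 3) on IgG, a difference of 44.3 percentage points. A two-sided exact permutation test gave p = 0.0286, the smallest value the 35 divisions allow, and an adjusted p of 0.0571 over the gained and the lost set, which did not pass 0.05. DN1 and DN2a libraries are separate stages pooled here, hence the wide SD. The gained regions were chosen as open in DN2b, which was itself cultured on Delta1, with IL-7 as for DN2a. That choice favours the Delta1 libraries, so the test cannot decide what the ligand did.

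Lost regions behaved otherwise in the control culture. They had a peak in 47.3% and 44.2% of cases in DN1, 25.5% and 22.2% in DN2a, and 36.7%, 38.0% and 42.0% in IgG, so IgG libraries fell between the DN1 and the DN2a libraries. Delta1 and IgG libraries were not separated (34.8% ± 12.8, SD, n = 4, against 38.9% ± 2.72, SD, n = 3, difference -4.12 percentage points, exact permutation p = 0.571). With lists as deposited the difference had the opposite sign, at 5.38 points. IgG lists are short and were used almost whole, down to percentile 13.1 or lower, and the part of this in the shares was not tested. By region, 6400 gained regions (87.9%) had no peak in any IgG library. Of lost regions, 2652 (46.9%) were also closed in all 3 IgG libraries and 1472 (26.0%) were open in all 3. The overlap followed the stage of loss. Of regions lost at DN1, 61.1% had no peak in any IgG library and 15.3% had one in all 3, while of regions lost at DN2b 28.8% had none and 38.7% were open in all 3.

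**Figure D2:**
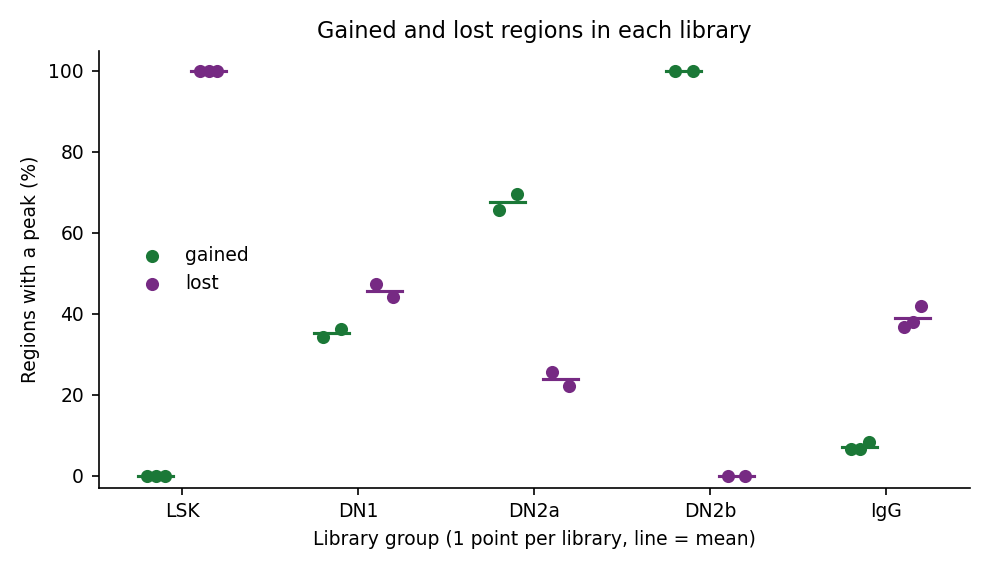
Percent of gained (green) and lost (purple) regions with a peak in each of the 12 libraries, 1 point per library and a line at the group mean. LSK and DN2b values are fixed at 0 or 100 by the definition, gained regions run from about 35.2% in DN1 to 67.7% in DN2a and stay at or below 8.31% in IgG, and lost regions in IgG lie between DN1 and DN2a.

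The strongest regions away from promoters show the 3 times of gain. The Bdh1 intron region had a peak at 29.5 in 1 LSK list, 96.8 and 95.2 in DN1, 97.5 and 99.5 in DN2a and 99.6 and 99.98 in DN2b. Next among gains at DN1 were a region beyond the last T cell receptor gamma segment, whose nearest coding start is Stard3nl (80.9 and 67.2 in DN1, 99.0 and 99.7 in DN2b), and one in an intron whose nearest start is Fam181a. The Metap2 region had no LSK peak, stood at 65.5 and 45.2 in DN1, which in DN1 replicate 1 was the end of the list used, and stood at 95.95 and 94.5 in DN2a. Gains in introns whose nearest starts are Osbpl3 and Pip4p2 (39140 and 103485 bp away) followed it. In the Kdm2b intron the values were 37.2 in 1 LSK library, 31.5 in 1 DN1 library, 20.7 and 57.9 in DN2a and 92.7 and 93.4 in DN2b. None of these 7 regions had an IgG peak.

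Among losses, the Rbp2 intron region stood at 96.7, 93.6 and 97.9 in LSK and 65.5 and 38.3 in DN1, and had no peak afterwards or in IgG. The 65.5, in DN1 replicate 1, was the end of the list used there, so the loss in that library rests on a tie in score. A region near Galnt6, also lost at DN1, had no peak in any DN library but was at 72.6, 69.5 and 59.8 in IgG. The Dlgap1 intron region stood at 96.5, 98.9 and 98.7 in LSK and 66.6 and 49.5 in DN1 and had no peak in DN2a or DN2b. The Gcnt2 region was still at 97.0 and 92.9 in DN1 and 76.2 and 66.5 in DN2a, against 97.4, 97.8 and 97.5 in LSK, and was without a peak in DN2b. Others of this rank lay near Nek6, Apbb2, Cdk17 and Zfp608. The highest loss at DN2b lay in the non-coding RNA gene Gm26917, at 99.99 in all 3 LSK libraries and in 1 DN1 and both DN2a libraries. As this locus may share reads with other copies, its values are uncertain.

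Changed regions lay away from promoters. A promoter was taken as 1 kb on either side of the start of a protein-coding gene (GENCODE M21). It held 12.5% of gained and 10.3% of lost regions, against 51.4% of the 16840 regions kept in all 5 libraries and 27.1% of all merged regions. Introns held 49.8% of gained, 45.7% of lost and 24.2% of kept regions, and intergenic sequence 30.4%, 36.1% and 18%. The median distance to the nearest start was 21.2 kb for gained and 23.5 kb for lost regions but 0.835 kb for kept ones. Gains at DN2b were nearer to promoters than earlier ones, with 15.7% within 1 kb against 11.3% at DN1 and 9.73% at DN2a. GC content did not set gained and lost regions apart, since both had a median of 50.7% in the central 150 bp, against 58.7% in kept regions.

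Gained regions lay closer to each other than lost ones. Another gained region lay within 10 kb of 35.1% of them, against 17.1% for lost regions, with 24 runs of 5 or more among gains and 1 among losses, although gains were also the larger set. Each region within 100 kb was assigned to the nearest protein-coding start, which names a neighbour and not a target. By that count 3922 of 21755 genes (18%) had a gained region and 3668 (16.9%) a lost one, and 1102 had both. Lif had the most gains, 10 of its 20 regions. Sla, which dampens T cell receptor signalling, and Ikzf1, the lymphoid regulator Ikaros, each had 9, and Cd47, a self-recognition protein, had 8. Ripor2 and Plec had 9 each, Pitpnm2 8 and Afdn 7. The genes 2210010C04Rik (9) and Stard3nl (8), are neighbours of the T cell receptor beta and gamma genes. Losses were most frequent at Sfi1 (8), a locus that held 96 merged regions, then at Abca1 (7), a cholesterol exporter. Tmem189, Zfp516 and Fsip1 followed with 6 each, and Wwc2, St3gal6 and Gsdme with 5 each. Runx1, a founder factor of the blood stem cell, had 5 lost and 2 gained regions.

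At the level of promoters, 269 of 21755 genes (1.24%) had a gained promoter, open in both DN2b and no LSK library, and 433 (1.99%) a lost one. Over all genes, LSK libraries had 9915 ± 99.3 open promoters (SD, n = 3). DN1 libraries had 9404 ± 50.9, DN2a libraries 9456 ± 106 and DN2b libraries 9686 ± 23.3 (SD, n = 2 each). The gained promoters with the highest percentile in DN2b were those of Map3k12, Bcl11b, Slc16a5, Cd3e and Olfr525. Among them Map3k12 is the exception, as its promoter was also open in 2 IgG libraries. The lost promoters with the highest percentile in LSK were those of Arrdc4, Jup, Myct1, Rab40b and Setd1b. Arrdc4 stood at percentiles of 98.9 to 99.3 in LSK, 89.8 and 71.7 in DN1 7.76 and 8.47 in DN2a, and at 98.9 to 99.6 in IgG. Myct1 is the only one of these 5 with no promoter peak in any IgG library.

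Among T lineage genes gains prevailed. The 30 genes of this list, the receptor chains, kinases, factors and surface proteins of T cells, had 179 regions within 100 kb, of which 70 (39.1%) were gained and 8 (4.47%) lost, against 13.0% and 9.91% of the regions of all genes. Of the 30 genes, 25 (83.3%) had a gained region, against 18% of all genes, and 6 (20%) had a lost one, against 16.9% of all genes. The median of gained minus lost regions was 1.5 per gene, and 0 over all genes. The most gained were Tcf7 (7 of 15 regions), Thy1 (6 of 12), Cd3e (5 of 6) and Prkcq (5 of 16, with 2 lost), the last a kinase of receptor signalling. Gained promoters numbered 8 and lost promoters 0, where 1.24% of all genes had a gained and 1.99% a lost promoter. The gained ones include those of Tcf7, Cd3e, Cd3d, Cd3g, Il2ra, Bcl11b and Rag1. No region was gained at Gata3, Ptcra, Cd2, Cd4 or Cd8a.

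Tcf7 encodes TCF1, the factor that starts the T cell program. Its strongest gained region, the one printed above, had score percentiles of 33.1 and 24.1 in LSK replicates 1 and 3 and no peak in LSK replicate 2. The percentiles were 86.7 and 88.7 in DN1, 95.7 and 96.8 in DN2a and 97.9 and 99.3 in DN2b, with no peak in any IgG library. The site was within the equal-length lists from DN1 on, a stage before the Tcf7 promoter itself, which had no LSK peak, lay at 43.6 and 45.2 in DN1 (outside the equal-length lists) and at 59.5 and 59.5 in DN2a, and stood at 54.3 and 73.0 in DN2b. Bcl11b, needed to leave the stem-cell state, had a promoter region at 27.3, 6.12 and 21.3 in LSK, 69.7 and 61.8 in DN1, 96.5 and 95.2 in DN2a and 97.4 and 96.4 in DN2b. The peak was within the equal-length lists of all 6 DN libraries and of no LSK library, and IgG libraries had no peak there. The Bcl11b intron region at +77311 bp was found later, at 18.4 and 30.2 in DN2a and 67.9 and 87.8 in DN2b.

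At Il2ra the printed upstream region came first. It had no LSK or IgG peak and stood at 68.8 and 53.4 in DN1, 69.6 and 80.0 in DN2a and 87.5 and 94.0 in DN2b. The 53.4, in DN1 replicate 2, was the end of the list used there, so the label of a gain at DN1 rests on a tie in score. The promoter had no peak in DN1 and stood at 89.4 and 84.7 in DN2a and 89.8 and 93.0 in DN2b. A like order was seen at Cd3e, a chain of the receptor complex, where a region at +11316 bp was at 87.6 and 87.8 in DN1 while the promoter had no DN1 peak and stood at 68.5 and 74.1 in DN2a and 92.7 and 98.8 in DN2b. Rag1, which cuts the receptor genes, had a promoter peak in the equal-length lists of 1 DN1, 1 DN2a and both DN2b libraries. In the lists as deposited, both DN1 libraries (29.4 and 53.4) and both DN2a libraries (49.3 and 66.5) had a peak there. The 53.4 was again the end of the DN1 replicate 2 list, so counting that library rests on a tie in score. Lck, the kinase that starts receptor signalling, gained an intron region with no LSK peak, 30.5 in 1 DN1 library, 80.0 and 77.7 in DN2a and 93.1 and 93.4 in DN2b.

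**Figure D3:**
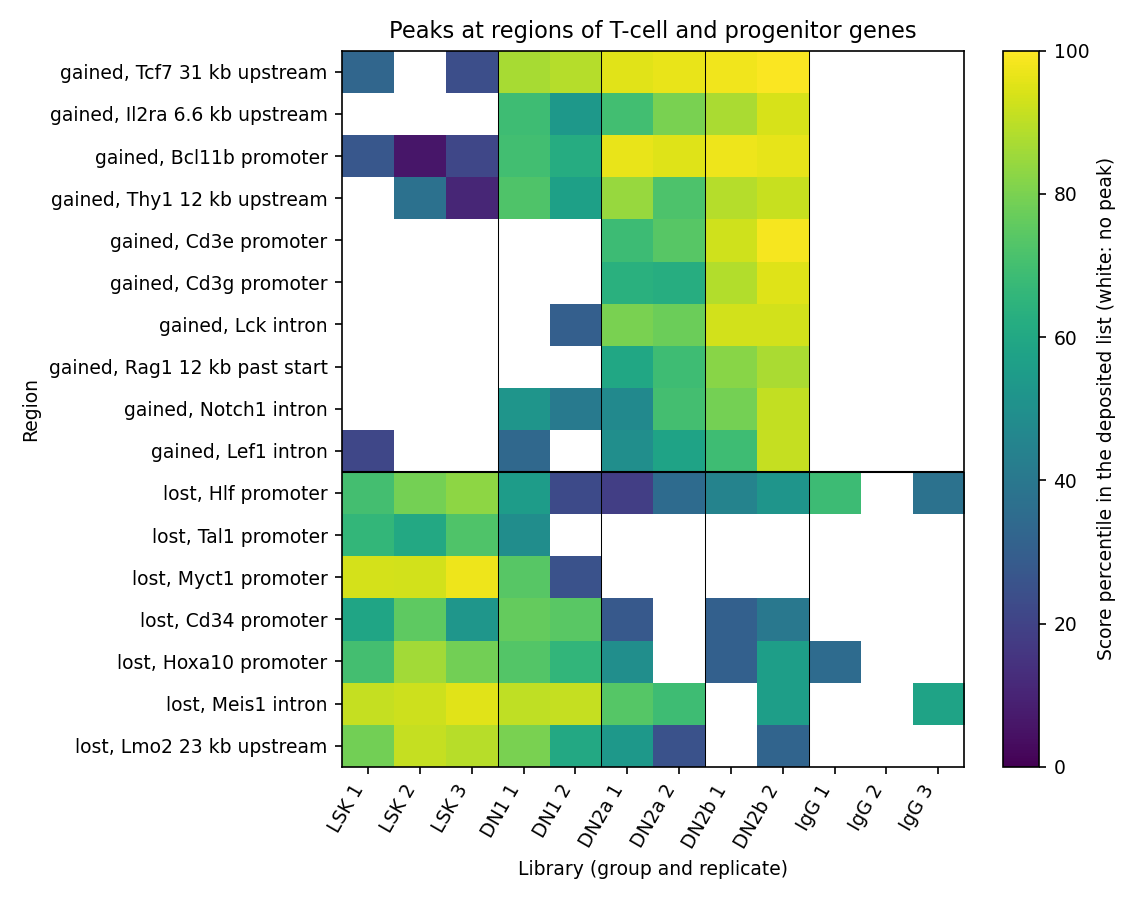
Score percentile of the peak (colour, 0 to 100 within each library's deposited list, white where there is no peak) at 10 gained and 7 lost regions of T cell and progenitor genes, in rows, across the 12 libraries, in columns. Gained regions turn towards yellow from DN1 or DN2a on and are white in the IgG libraries, and lost regions such as the Myct1 promoter (93.6, 93.2 and 97.3 in LSK) have lower percentiles or no peak (white) in the DN2b columns.

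Among progenitor genes losses prevailed. The 30 genes of the HSPC (haematopoietic stem and progenitor cell) list had 138 regions, of which 34 (24.6%) were lost and 16 (11.6%) gained, against 9.91% and 13.0% over all genes. Of these genes, 18 (60%) had a lost region, against 16.9% of all genes, and 12 (40%) a gained one, against 18% of all genes. The median of gained minus lost regions was -0.5. Lmo2, a bridging cofactor of stem cells, lost 4 of 14 and gained 2, and Tal1, its partner, lost 3 of 5 and gained 0. Myct1, a marker of stem cells, lost 3 of 4 and gained 0, and Hhex and Msi2 lost 3 each and gained 1 and 2. Lost promoters numbered 8, those of Bcl11a, Tal1, Myct1, Hoxa7, Hlf, Cd34, Hoxa10 and Robo4, and gained promoters 0. Over all genes, 1.99% had a lost and 1.24% a gained promoter. The promoters of Kit, Flt3, Meis1, Lyl1 and Gfi1b were open in all 5 libraries. Hence the list did not change as 1 block.

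The Myct1 promoter stood at 93.6, 93.2 and 97.3 in LSK and 74.2 and 25.05 in DN1, and had no peak in DN2a, DN2b or IgG. Tal1 had a promoter region at 66.4, 60.5 and 72.7 in LSK and 48.9 in DN1 replicate 1, and no peak in the other 8 libraries, also in the lists as deposited. Another Tal1 promoter region, at +555 bp, had no DN2a or DN2b peak but was present in all 3 IgG libraries (39.9, 66.9 and 70.5). In the lists as deposited, 5 of the 8 lost promoters (Bcl11a, Hoxa7, Hoxa10, Hlf and Cd34) still had a peak in both DN2b libraries. Tal1 had a promoter peak in 1 of them, outside the regions just described, while Myct1 and Robo4 had none. The promoter of Hlf, a regulator of stem cell quiescence, was at 70.1, 79.2 and 82.9 in LSK, still had peaks at 44.9 and 52.2 in DN2b, and stood at 68.7 and 37.6 in IgG replicates 1 and 3. The Cd34 promoter was within the equal-length lists of all LSK (58.6, 75.1 and 52.7) and DN1 libraries (76.5 and 74.6), and outside those of DN2a (27.9 in 1 library, no peak in the other) and DN2b (30.8 and 40.0). The Meis1 intron region was lost last, with 91.4, 92.5 and 95.6 in LSK, 90.5 and 91.1 in DN1, 73.6 and 68.9 in DN2a, and 55.9 in DN2b replicate 2. Meis1 also gained a region, at +21984 bp, with no LSK peak and 87.6 and 92.2 in DN1.

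The Notch pathway list lay near the shares of all genes by region. Of the 113 regions of its 20 genes, 18 (15.9%) were gained and 10 (8.85%) lost, against 13.0% and 9.91% over all genes. Of the 20 genes, 9 (45%) had a gained region, against 18% of all genes, and 6 (30%) a lost one, against 16.9%. The 20 genes held 113 regions, more per gene than the 48006 of all 21755 genes, which bears on such shares of genes in this list as in the T lineage and HSPC lists. In the Notch list 12 promoters were open in all 5 libraries. Dtx1, a target of the pathway, gained 3 of 4 regions, and its intron region at +26056 bp had no LSK or IgG peak, 89.4 and 93.2 in DN1, 91.6 and 93.1 in DN2a and 88.9 and 95.2 in DN2b. Hes1, the best-known target, gained 3 regions and lost 1, all at DN1, while its promoter was open in every library (85.9 to 89.3 in LSK, 98.1 and 98.0 in DN1). The receptor gene Notch1 gained an intron region at DN2b, with no LSK peak, 52.2 and 40.7 in DN1, 47.4 and 70.0 in DN2a and 79.0 and 90.7 in DN2b. The only gained promoter of the list, that of the ligand gene Dll4, was also open in 2 IgG libraries. Notch2, another receptor, lost 3 regions.

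Genes of the other lineages were mixed, and their shares are read against the 13.0% gained and 9.91% lost over all genes. For promoters, the shares over all genes were 1.24% gained and 1.99% lost. The mast, erythroid and megakaryocyte list lost 13 of 63 regions (20.6%) and gained 5 (7.94%), and its lost promoters were those of the platelet genes Gp9, Itga2b, Pf4 and Gp1ba. The myeloid list gained 16 of 89 regions (17.98%) and lost 12 (13.5%), with the promoters of Hk3 and Cd33 lost. Spi1, which encodes PU.1, and Cebpa kept open promoters in all 5 libraries. The B lineage list had 7 gained (17.5%) and 2 lost (5%) of 40 regions. The list of NK (natural killer) and innate lymphoid genes gained 36 of 111 (32.4%) and lost 9 (8.11%). Gained regions there lay at Fasl (7 of 16), a death ligand, Gzmb (5 of 8), a protease of killer granules, and Ifng (5 of 11), and gained promoters were those of Xcl1, Klrd1, Nkg7 and Il18r1. T cells also use several of these genes.

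The number of open promoters of each list was compared across the 4 stages in the 9 LSK and DN libraries. The statistic was the share of variance between stages in an exact permutation test over all 7560 divisions, adjusted by Benjamini-Hochberg over the 7 lists, and the smallest p such divisions gave here was 0.000794. LSK and DN2b alone allow 10 divisions and no p below 0.1. T lineage promoters were open in 2, 4 and 2 of 30 genes in LSK, 5 and 8 in DN1, 12 and 12 in DN2a and 14 and 15 in DN2b (exact permutation, adjusted p = 0.00278). Each stage lay above the one before it with no overlap. This list holds Il2ra, Cd3e, Rag1 and Bcl11b, whose promoters the study had already reported as opening by DN2b in these same libraries. The test on this list is therefore not independent of these data. HSPC promoters went the other way, with 20, 19 and 20 in LSK, 17 and 15 in DN1, 13 and 13 in DN2a and 11 and 12 in DN2b (exact permutation, adjusted p = 0.00278). In the mast, erythroid and megakaryocyte list the count fell from 7.33 ± 0.577 (SD, n = 3) to 3.50 ± 0.707 (SD, n = 2) of 20 (exact permutation, adjusted p = 0.00694), and in the NK and innate lymphoid list it rose from 5, 4 and 3 in LSK to 9 and 11 of 20 in DN2b (exact permutation, adjusted p = 0.00889).

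The Notch list passed as well, with 13 in each LSK library, 11 and 12 in DN1, 12 and 12 in DN2a and 14 and 14 in DN2b (exact permutation, adjusted p = 0.00556), a range of 3 genes. Over all genes the mean number of open promoters was likewise lower in DN1 (9404) and DN2a (9456) than in LSK (9915) and DN2b (9686). The myeloid list (10, 11 and 7 in LSK, 7 and 6 in DN2b, adjusted p = 0.277) and the B lineage list (6, 6 and 5 in LSK, 4 and 4 in DN2b, adjusted p = 0.0676) did not pass the exact permutation test. In IgG libraries 1, 1 and 3 T lineage promoters and 22, 20 and 21 myeloid promoters were open. HSPC promoters in IgG numbered 14, 11 and 13 and mast, erythroid and megakaryocyte promoters 3, 3 and 2, both below every LSK library and overlapping the DN2b counts, so these lower counts were also seen without ligand. With lists as deposited, 3 lists that had passed no longer did in the exact permutation test, namely Notch (adjusted p = 0.142), HSPC (adjusted p = 0.142) and mast, erythroid and megakaryocyte (adjusted p = 0.537). With the 20000 highest scores, the Notch list (adjusted p = 0.583) and the NK list (adjusted p = 0.0708) did not pass the exact permutation test. The T lineage list passed under every alternative tried, each with the same genes, some of them known beforehand from these libraries.

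**Figure D4:**
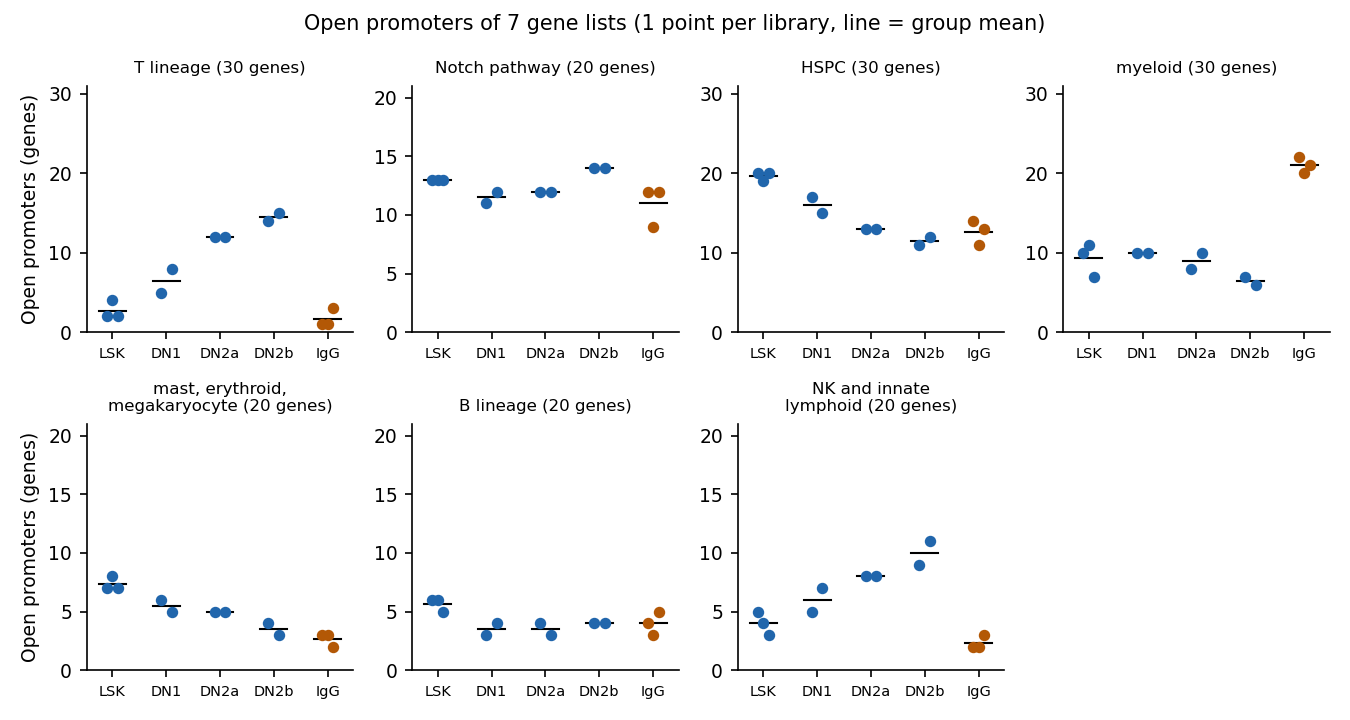
Number of genes with an open promoter (vertical axis, from 0 to the size of the list) in each library, 1 panel per gene list, with 1 point per library and a line at the group mean (blue for LSK and the DN stages, orange for IgG). T lineage promoters climb from 2 to 4 in LSK to 14 and 15 in DN2b, HSPC promoters drop from 19 or 20 to 11 and 12, and the myeloid list is highest in IgG.

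Which factor motifs did the changed regions hold? In the central 150 bp, a RUNX motif (TGTGGT) was found in 44.2% of gained regions against 20.2% of lost, 16.6% of kept and 23.3% of all merged regions. It was most frequent in the earliest gains, with 52.4% at DN1, 46.6% at DN2a and 36.5% at DN2b. The E protein motif CACCTG ran the opposite way, with 17.1%, 22.6% and 32.6% of gains at DN1, DN2a and DN2b, and was found in 25.02% of all gained, 8.87% of lost and 13.5% of all merged regions. The other E protein form, CAGCTG, differed less, with 17.3%, 17.8% and 20.4% of gains in the same order, and 18.7% of all gained against 12.5% of lost regions. TCF1/LEF1 letters (CTTTGA) peaked in gains at DN2a (18.1%, 22.03% and 15.1% in the same order), and 18.2% of gained regions held them against 8.02% of lost and 9.94% of all. STAT letters (TTCNNNGAA), which factors downstream of IL-7 bind, were in 6.23% of gains at DN1, 10.8% at DN2a and 9.43% at DN2b, against 4.71% of all regions.

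PU.1 letters (GAGGAAGT, which include the ETS letters AGGAAG) marked losses after DN1. They were in 6.52% of regions lost at DN1, 14.8% of those lost at DN2a and 14.7% of those lost at DN2b, against 3.598% of gained and 5.95% of all regions. Among gains they were most frequent at DN1 (6.53%) and fell to 2.88% at DN2a and 2.14% at DN2b. The wider ETS motif, a family shared by many factors, was in 46.1% of lost, 37.5% of gained and 35.1% of all regions. C/EBP letters (TTGCNNAA), of a myeloid factor family, were in 9.61% of lost and 4.90% of gained regions, and the CTCF core (AGGGGGC), of the factor that anchors chromatin loops, in 3.12% of gained, 7.23% of lost and 10.1% of kept regions. GATA letters (AGATAA) were about as frequent in gains (11.0%) as in losses (9.65%), above the 6.92% of all regions. Away from promoters RUNX letters were in 48.4% of gained, 21.6% of lost, 27.5% of kept and 29.0% of all regions, so lost regions there lay below kept ones. ETS letters there were in 39.0% of gained and 39.9% of all regions, and PU.1 letters in 7.08% of regions lost at DN1 and 7.19% of all, so these shares were no longer above those of all regions. RUNX and TCF1/LEF1 letters together were in 8.84% of gained, 1.77% of lost and 3.73% of all regions away from promoters.

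**Figure D5:**
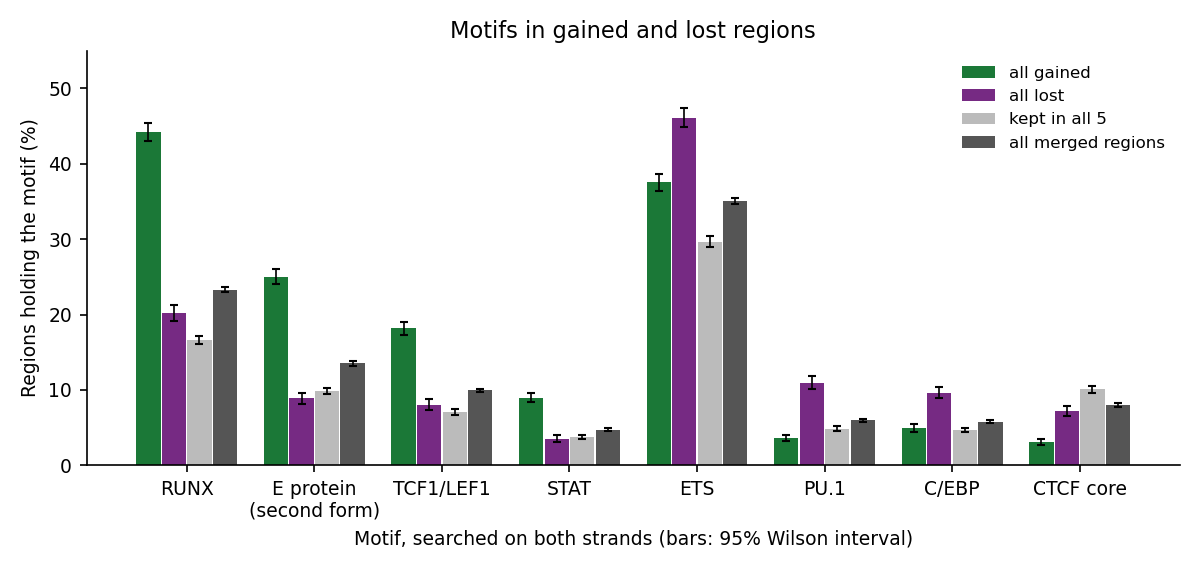
Percent of regions whose central 150 bp holds each of 8 motifs, for gained (green), lost (purple), kept (light grey) and all merged regions (dark grey), with 95% Wilson intervals. RUNX, the second E protein form (25.02% of gained), TCF1/LEF1 and STAT stand higher in gained regions, and ETS, PU.1 (11.0% of lost) and C/EBP in lost ones.

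Since the regions were chosen from LSK and DN2b peaks, these shares are descriptions. The same motifs were tested over whole libraries, as the share of each library's 32952 peaks that hold them, by the exact permutation test across the 4 stages, adjusted over 14 motifs. Of these, 11 passed, and for 12 of 14 the LSK and DN2b libraries did not overlap (all but AP-1 and IRF). RUNX letters were held by 17.8% ± 0.460 of LSK peaks (SD, n = 3), 24.6% ± 0.783 of DN1 peaks, 25.6% ± 0.189 of DN2a peaks and 25.2% ± 0.0601 of DN2b peaks (SD, n = 2 each, exact permutation, adjusted p = 0.00370), so the rise lay between LSK and DN1. CACCTG rose late, from 10.01% ± 0.0822 in LSK and 10.2% ± 0.292 in DN1 to 12.2% ± 0.740 in DN2a and 15.3% ± 0.504 in DN2b (exact permutation, adjusted p = 0.00635). TCF1/LEF1 letters went from 7.67% ± 0.127 in LSK to 9.16% ± 0.0966 in DN1 and 10.6% in both DN2a and DN2b (exact permutation, adjusted p = 0.00370).

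The PU.1 share was not one-way. It stood at 6.52% ± 0.122 in LSK (SD, n = 3), rose to 7.92% ± 0.386 in DN1 and fell to 5.50% ± 0.0644 in DN2a and 4.38% ± 0.0773 in DN2b (SD, n = 2 each, exact permutation, adjusted p = 0.00370). C/EBP letters fell from 6.13% ± 0.0401 to 4.63% ± 0.0215 (exact permutation, adjusted p = 0.00370) and stood at 15.4% ± 1.16 (SD, n = 3) in IgG. STAT letters rose from 3.65% ± 0.0829 to 5.26% ± 0.120, and CTCF letters fell from 9.37% ± 0.0883 to 7.65% ± 0.0300 (exact permutation, adjusted p = 0.00370 and 0.0167). RBPJ letters (TGGGAA), those of the Notch complex, moved by 0.499 percentage points, from 11.6% ± 0.133 to 12.1% ± 0.00858 (exact permutation, adjusted p = 0.0253), and the mean was highest in IgG (12.6% ± 0.205, SD, n = 3). In a 300 bp window the exact permutation test no longer passed for RBPJ (adjusted p = 0.122). GATA (adjusted p = 0.1), AP-1 (adjusted p = 0.421) and IRF (adjusted p = 0.599) did not pass the exact permutation test. GATA passed without DN1 replicate 1 (adjusted p = 0.00714) or DN1 replicate 2 (adjusted p = 0.00476), and AP-1 passed without LSK replicate 2 (adjusted p = 0.0267), in the same exact permutation test. The CTCF call was lost when any single LSK or DN2b library was left out (adjusted p from 0.0515 to 0.182, exact permutation). MEIS letters (TGACAG) rose from 11.3% to 12.8% (exact permutation, adjusted p = 0.00833), and that call was lost without any single LSK library, DN2a replicate 1 or DN2b replicate 1 (adjusted p from 0.0530 to 0.08).

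The lost and the gained region of the Runx1 intron lie a short distance apart, and whether a site moved was not tested. The lost region stood at 85.9, 88.9 and 96.4 in LSK and 96.4 and 92.5 in DN1, and at 92.0 in 1 DN2a library, and had no peak in either DN2b library. The gained region had no peak in LSK or DN1 and stood at 92.0 and 91.0 in DN2a and 93.5 and 94.6 in DN2b. Their midpoints are 260 bp apart. In all, 85 such pairs of a gained and a lost region lay within 1 kb of each other, so 1.17% of gained and 1.45% of lost regions had a partner of this kind.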

How the data were processed

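DNase-seq was performed by the authors on low-input, single-stranded libraries from 12 samples. Reads were aligned with BWA 0.7.12 to mm10 and handled with SAMtools 1.2 per the submitters' processing notes and the study's methods, and peaks were called for each library with hotspot2. The deposited score of each 150-bp peak, from 1 to 150, has no meaning stated in the sources used here, so it served only to rank peaks within a library. Read depth is unknown, and intervals (95% Wilson) cover counting error only.

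The members and lists were chosen with earlier results of these data known. Peaks on chromosomes 1 to 19 and X were kept. The 32952 highest scores of each library were taken, and the 3 LSK and 2 DN2b lists were merged (1 bp or more). Positions came from GENCODE M21 (21755 protein-coding genes, promoter within 1 kb), each region going to the nearest start within 100 kb. Base sequences were read from GRCm38, and 14 motifs were sought on both strands in the central 150 bp. Genes named were those of 7 lists, 6 genes the study drew, the 10 genes with the most gains and with the most losses, and the 5 promoters and, per stage, 3 other regions with the highest median percentile in each direction. The gene Runx1 pair and the printed list regions were picked after their values were seen.

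Open promoters and motif shares were compared across stages by exact permutation tests with Benjamini-Hochberg adjustment (share of variance between stages, and two-sided differences between 2 groups; scipy 1.17.1, numpy 2.4.6, pandas 2.3.3, pysam 0.24.0, Python 3.11.15), tested on simulated data. Alternatives were lists as deposited, the 20000 highest scores, 50 bp overlap, 1 replicate per stage, promoter windows of 500 bp and 2.5 kb, a 300 bp motif window and leaving out each library. Peaks on Y and M (463) were left out. Some genes chosen by these rules are not reported here.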

Additional observations from a re-analysis of the deposited data

How the results depend on the processing

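Of 412 recomputed values, 315 kept their direction and side of the threshold or moved little, 70 moved, 16 lost a call, 5 gained one and 6 reversed. With lists as deposited, 15562 regions were gained and 4713 lost, against 4383 gained and 3329 lost with the 20000 highest scores. Leaving out each LSK or DN2b library gave 7741 to 9862 gained and 6729 to 7145 lost, against 7281 and 5659 with all of them. Each such run drops a condition of the rule, so higher counts were built in and are no check of stability. These rises were counted above as moving little. Stages of gain (DN1, DN2a, DN2b) were 33.6%, 18.5% and 48.0% as deposited and 42.7%, 38.3% and 19.0% with 1 replicate enough, and DN2a was 33.9% with 20000 peaks. Stages of loss were 31.7%, 48.4% and 19.9% as deposited, 48.5%, 26.0% and 25.5% with 20000 peaks, and 62.7%, 25.7% and 11.5% with 1 replicate enough. Leaving out each library, gains ranged over 22.8% to 36.2%, 26.2% to 44.2% and 28.03% to 51.1%, and losses over 40.9% to 55.8%, 21.2% to 35.3% and 18.9% to 34.8%. Delta1 minus IgG in lost regions was 5.38 as deposited and -8.28 to 0.0825 without 1 library, reversed without DN2a replicate 2. In gained regions it was 38.2 to 50.03 (exact permutation, adjusted p from 0.2 to 0.267).

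DN2b minus LSK in open promoters, as deposited, was 2.67 for Notch, -1 for HSPC and -1 for mast, erythroid and megakaryocyte genes, with the calls lost, and 2.5, reversed, for B lineage genes. With 20000 peaks it was -0.5 for Notch and 0.833 for myeloid genes, both reversed, and 2.33 for NK genes. With the 500 bp window Notch (2.17) lost its call and the myeloid list (-4.17) gained one. Promoters held 7.62% of lost regions as deposited and 14.7% with 20000 peaks. They held 7.70% of gained and 7.81% of lost regions within 500 bp, and 19.2% and 14.8% within 2.5 kb. The number of motifs called ran from 9 to 12 without 1 library. GATA gained a call with 20000 peaks (0.55) and without either DN1 library, AP-1 gained one without LSK replicate 2, RBPJ lost one at 300 bp (0.32), and IRF ran from -0.0263 to 0.274 without 1 library, reversed without DN2b replicate 2. The causes were not tested. No paired analysis was possible because the labels number no replicates, so the numbers here follow deposit order.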

Other observations

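The T cell receptor genes themselves, which are segments and not protein-coding starts in the lists above, held gained regions at shares to be read against the 13.6% gained and 10.6% lost of all merged regions. Of 36 merged regions in the beta locus (chr6:40891229-41558452), 21 were gained and 0 lost, 8 of them at DN1, 11 at DN2a and 2 at DN2b, where all gains split into 27.8%, 32.5% and 39.7%. In LSK libraries 4, 6 and 4 of its regions had a peak, in DN1 13 and 18, in DN2a 27 and 28, in DN2b 26 and 35, and in IgG 2, 2 and 1. In the alpha and delta locus (chr14:52427928-54224206) 13 of 31 regions were gained and 1 lost, with 0 gains at DN1, 6 at DN2a and 7 at DN2b. In the gamma locus (chr13:19178024-19352756) 11 of 28 were gained and 0 lost, 1 at DN1, 4 at DN2a and 6 at DN2b. The stage splits of the loci were not tested against each other.

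Gained regions lay within 1 kb of a kept region in 1023 cases (14.1%), and lost regions in 271 (4.79%). The 85 pairs of a gained and a lost region held 82 different lost regions, so some of these were counted in more than 1 pair. In the pairs, RUNX letters were in 31 gained (36.5%) and 15 lost members (17.6%), against the 44.2% and 20.2% of all gained and lost regions. CACCTG was in 22 (25.9%) and 5 (5.88%), against 25.02% and 8.87%, TCF1/LEF1 letters in 16 (18.8%) and 8 (9.41%), against 18.2% and 8.02%, and PU.1 letters in 1 (1.18%) and 9 (10.6%), against 3.598% and 11.0%.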
